A study of Mus musculus with 8 samples.

Results

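The regulators that decide whether a retinal progenitor becomes a rod or a cone photoreceptor were described in RNA of isolated retinal pigment epithelium (RPE) from *Bbs8*+/+ and *Bbs8*-/- mice. The 10 genes were chosen by name for this role, with earlier results of these data known and no threshold on their values, and are *Nrl*, *Nr2e3*, *Crx*, *Rorb*, *Neurod1*, *Prdm1*, *Thrb*, *Rxrg*, *Samd7* and *Mef2c*. All 10 were found among the 31053 gene identifiers of the count tables, and all 10 passed the filter of at least 1 CPM (counts scaled to the size of the library) in at least 4 of the 8 libraries, which left 12889 genes for testing. Each of 4 *Bbs8*+/+ and 4 *Bbs8*-/- libraries came from RPE of untreated C57/Bl6 mice at postnatal day 29 (P29), and the study took every animal as a biological replicate. The wild-type mice were littermates of the mutants, and the sex of the animals was not determined. *Bbs8*, listed in the annotation as *Ttc8*, encodes a subunit of the BBSome, a complex that carries cargo in and out of cilia. The mutation was present in every tissue, so that the neighbouring photoreceptors also lacked *Bbs8*, and RPE sheets were peeled from trypsin-treated eyecups after cornea, lens and retina had been removed.

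Photoreceptor fate is set by a small network of transcription factors. *Rorb* and *Crx* act in all photoreceptor precursors, *Nrl* commits a precursor to the rod fate, and its target *Nr2e3* keeps cone genes silent in rods. *Prdm1* holds precursors back from the bipolar fate, *Neurod1* acts in photoreceptor differentiation and survival, *Thrb* and *Rxrg* are nuclear receptors that pattern the cone opsins, *Samd7* belongs to a polycomb complex that silences non-rod genes, and *Mef2c* is a MADS-box factor with roles in muscle, vessels, microglia and rods. They are known chiefly from the neural retina. Whether a difference in bulk RNA stands for fewer cells of a type or for less RNA per cell cannot be told apart.

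Counts on genes ranged from 2495094 to 3093428 in the *Bbs8*+/+ libraries and from 2389835 to 2736289 in the *Bbs8*-/- libraries, so that 3 counts, taken as the smallest signal, corresponded to 0.970 to 1.26 CPM. Reads carried no molecular identifiers, and such limits cover counting error only. *Ttc8* lay between 35.5 and 58.9 CPM in the *Bbs8*+/+ libraries and between 1.79 and 6.16 CPM in the *Bbs8*-/- libraries, as the labels ask. The 13 RPE markers summed to 3.56% to 3.69% of the counts in *Bbs8*+/+ and 4.63% to 4.95% in *Bbs8*-/- libraries, with 3 of them up-regulated and 3 down-regulated. Without *Ttr*, which alone went from 1.98% to 2.06% up to 3.07% to 3.39%, the other 12 summed to 1.51% to 1.63% in *Bbs8*+/+, a range that also held all 4 *Bbs8*-/- libraries, and the RPE marker *Best1* had at most 5 counts in any library. RNA of other tissues was present: 13 rod genes, 9 lens genes and 6 erythrocyte genes made up 5.35% to 5.67%, 0.242% to 0.260% and 0.505% to 0.546% of the counts in *Bbs8*+/+ libraries, and 2.34% to 2.44%, 0.0348% to 0.0403% and 0.208% to 0.226% in *Bbs8*-/- libraries. No library lay apart from the others of its genotype by the criterion for outliers used here in any of the 20 sets of 4 values examined. In raw counts over many genes, however, *Bbs8*+/+ replicate 1 differed more from the other controls than these did among themselves. The chi-square per degree of freedom was 6.20 to 7.70 for its pairs and 2.87 to 3.45 for the pairs without it.

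Of the 10 fate regulators 5 fell. *Nrl*, *Nr2e3*, *Crx*, *Rorb* and *Mef2c* were down-regulated in *Bbs8*-/- RPE, 0 were up-regulated and 5 did not pass the test. Among all genes tested 6.80% were down-regulated, 5.46% up-regulated and 12.3% called in either direction at an adjusted p under 0.05 (edgeR's quasi-likelihood test, Benjamini-Hochberg adjustment over 12889 genes), and every adjusted p for a gene is from this test unless another is named. The median log2 fold change of the 10 regulators was −0.611, against 0.0217 over all tested genes. For 6 of the 10 every mutant library was below every control library, which held for 8.62% of all tested genes (16.0% had no overlap in either direction). Summed over the 10 genes, the level was 4621 to 4903 CPM in *Bbs8*+/+ libraries and 2123 to 2186 CPM in *Bbs8*-/- libraries.

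**Figure D1:**
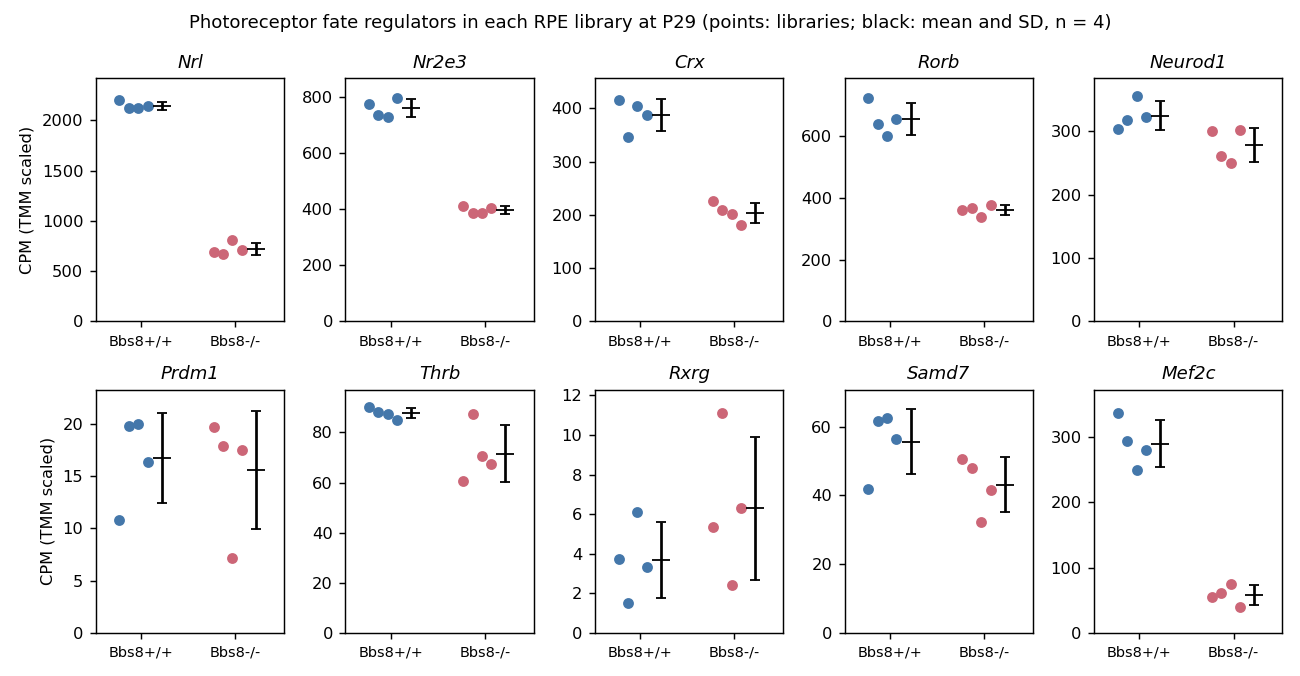
CPM, scaled by TMM, of each of the 10 regulators in 4 *Bbs8*+/+ (blue) and 4 *Bbs8*-/- (red) libraries, with the mean and SD in black and an axis from 0 in every panel. *Nrl*, *Nr2e3*, *Crx*, *Rorb* and *Mef2c* show a wide gap between the genotypes, *Neurod1* a very narrow one, and the genotypes overlap for *Prdm1*, *Thrb*, *Rxrg* and *Samd7*.

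Among the rod regulators *Nrl* had the largest fold change. *Nrl* (ENSMUSG00000040632, chr14:55518978-55524981 of GRCm38, reverse strand), the leucine zipper factor that commits precursors to the rod fate, was measured at 2203, 2118, 2120 and 2138 CPM in the *Bbs8*+/+ libraries and at 695, 673, 806 and 706 CPM in the *Bbs8*-/- libraries. The control libraries spread by only 1.86% (coefficient of variation), and every mutant library lay far below them. The mean fell from 2145 ± 40.0 to 720 ± 59.0 CPM (SD, n = 4), to 33.6% of the control. The log2 fold change was −1.58 (95% interval −1.71 to −1.44, standard error 0.0666, adjusted p = 1.02e-20). *Nr2e3* (ENSMUSG00000032292, chr9:59942771-59960659, reverse strand), the orphan nuclear receptor that represses cone genes in rods, was found at 774, 735, 727 and 795 CPM in *Bbs8*+/+ and at 411, 386, 385 and 405 CPM in *Bbs8*-/- RPE. Its mutant libraries lay close together and apart from the controls. With means of 758 ± 32.0 and 397 ± 13.5 CPM (SD, n = 4), *Nr2e3* was at 52.4% of the control level (log2 fold change −0.93, standard error 0.0763, adjusted p = 3.64e-12). *Samd7* (ENSMUSG00000051860, chr3:30746293-30767174, forward strand), whose product represses non-rod genes as part of a polycomb complex, gave 42.0, 61.5, 62.5 and 56.5 CPM in controls and 50.5, 48.0, 32.4 and 41.6 CPM in mutants. The lowest control library lay among the mutant libraries, and the difference did not pass the test (55.6 ± 9.48 against 43.1 ± 8.08 CPM, SD, n = 4; log2 fold change −0.36, 95% interval −0.73 to 0.00, adjusted p = 0.217).

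Of the regulators that act in rod and cone precursors alike, *Crx* and *Rorb* fell and *Neurod1* and *Prdm1* did not pass the test. *Crx* (ENSMUSG00000041578, chr7:15865947-15879968, reverse strand), the homeobox factor that switches on the genes of mature photoreceptors, had 415, 347, 405 and 387 CPM in *Bbs8*+/+ libraries and 226, 210, 201 and 181 CPM in *Bbs8*-/- libraries. No mutant library came near the lowest control. The level dropped from 388 ± 30.1 to 204 ± 18.8 CPM (SD, n = 4), which is −0.93 on the log2 scale (standard error 0.0940, adjusted p = 8.29e-10). *Rorb* (ENSMUSG00000036192, chr19:18930605-19111196, reverse strand), a nuclear receptor needed for the rod fate and for *Nrl* expression, was at 723, 639, 601 and 657 CPM in controls and 361, 368, 338 and 377 CPM in mutants. All 4 mutant libraries were again below all controls, with means of 655 ± 51.1 and 361 ± 16.5 CPM (SD, n = 4), or −0.86 in log2 (standard error 0.0811, adjusted p = 1.53e-10). *Neurod1* (ENSMUSG00000034701, chr2:79452521-79456751, reverse strand), a basic helix-loop-helix factor, was at 303, 317, 356 and 322 CPM in controls and 301, 261, 249 and 302 CPM in mutants. The genotypes were separated by a gap of about 1 CPM, and the log2 fold change of −0.22 (standard error 0.0925, 95% interval −0.41 to −0.03) missed the threshold (adjusted p = 0.126). Without *Bbs8*+/+ replicate 1, which holds the lowest control value, the change was −0.25 and passed with an adjusted p of 0.0499. *Neurod1* shares genomic sequence on its own strand with *Cerkl*, which had 20 to 79 counts per library. *Prdm1* (ENSMUSG00000038151, chr10:44437177-44528501, reverse strand), the zinc finger repressor that keeps precursors from becoming bipolar cells, was low throughout, with 10.8, 19.8, 20.0 and 16.4 CPM in controls and 19.7, 17.9, 7.20 and 17.5 CPM in mutants. Mutant replicate 3 lay below every control and the other 3 mutant libraries lay among the controls. The log2 fold change of −0.10 had a 95% interval of −0.73 to 0.53 (adjusted p = 0.903), which leaves room for a moderate change in either direction, and it was 0.14 without that replicate.

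The nuclear receptors of the cone programme did not pass the test in either direction. *Thrb* (ENSMUSG00000021779, chr14:17660261-18038090, forward strand), the thyroid hormone receptor that directs the medium-wavelength opsin, had 90.0, 88.0, 87.5 and 85.1 CPM in *Bbs8*+/+ and 60.8, 87.4, 70.4 and 67.4 CPM in *Bbs8*-/- libraries. Replicate 2 of the mutants fell within the tight range of the controls and the other 3 lay below it. The means of 87.7 ± 2.03 and 71.5 ± 11.4 CPM (SD, n = 4) gave a log2 fold change of −0.29 (95% interval −0.58 to −0.01, adjusted p = 0.197). *Rxrg* (ENSMUSG00000015843, chr1:167598384-167639623, forward strand), the retinoid X receptor that suppresses short-wavelength opsin in cones, rested on 11, 4, 15 and 9 counts in controls and 13, 31, 6 and 18 counts in mutants, or 3.72, 1.49, 6.13 and 3.34 against 5.34, 11.1, 2.40 and 6.29 CPM. The ranges overlapped, and with so few counts a log2 fold change of 0.78 (95% interval −0.38 to 1.95, adjusted p = 0.457) was not distinguishable from no change.

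*Mef2c* showed the largest fold change of the 10. *Mef2c* (ENSMUSG00000005583, chr13:83504034-83667080, forward strand) was measured at 337, 294, 250 and 280 CPM in the *Bbs8*+/+ libraries and at 55.0, 60.9, 75.6 and 39.5 CPM in the *Bbs8*-/- libraries. Even the highest mutant library was far below the lowest control. The level fell from 290 ± 36.1 to 57.8 ± 14.9 CPM (SD, n = 4), to 19.9% of the control. This was −2.33 in log2 (95% interval −2.61 to −2.06, standard error 0.136, adjusted p = 2.01e-16). *Mef2c* is also used by endothelium and microglia. Of their marker genes 0 of 7 and 0 of 6 tested were called, where 12.3% of all tested genes were. Apart from *Kdr* (16.5 CPM), the tested endothelial markers had control means of only 0.772 to 4.18 CPM, so that a missing call says little. The endothelial list summed to 28.2 to 37.3 CPM in *Bbs8*+/+ against 33.7 to 41.2 CPM in *Bbs8*-/- libraries. The microglial list summed to 332 to 444 against 292 to 331 CPM, with every mutant library below every control. Most of this sum was *Csf1r* (means of 318 and 263 CPM, adjusted p = 0.0658). All 9 lens genes were down-regulated, and their sum was 2467 to 2694 CPM in *Bbs8*+/+ and 342 to 390 CPM in *Bbs8*-/- libraries. The part of any of these tissues in the *Mef2c* value was not tested.

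The upstream sequences of the regulators were searched for short motifs on both strands, in the 250 bases before each transcript start of the RefSeq promoter table (GRCm38.p6). The table held 15 starts of the 10 genes among 32851 promoters. The motif TAATCC, bound by CRX and OTX factors, was present before 3 of the 15 starts (*Crx*, *Samd7* and a start of *Thrb*) and in 6.25% of all promoters. For comparison it was found before 4 of 7 starts of rod genes, 6 of 17 starts of genes of both photoreceptors and 1 of 7 starts of cone genes. The table held starts for only 7 of the 13 listed rod genes, 14 of the 20 genes of both photoreceptors and 6 of the 10 cone genes. The NRL motif TGCTGAC was found before 1 of the 15 starts, in *Rorb*, and in 3.81% of all promoters. The upstream windows of *Crx*, *Samd7* and *Rorb* are printed 5′ to 3′ on the gene's strand, since they carry these matches. In the GENCODE annotation the last 13 bases of the *Crx* window belong to an exon, and the windows of *Samd7* and *Rorb* overlap none. Capitals mark every motif match, and a CRX match on the other strand reads GGATTA:

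Crx, chr7:15879956-15880205: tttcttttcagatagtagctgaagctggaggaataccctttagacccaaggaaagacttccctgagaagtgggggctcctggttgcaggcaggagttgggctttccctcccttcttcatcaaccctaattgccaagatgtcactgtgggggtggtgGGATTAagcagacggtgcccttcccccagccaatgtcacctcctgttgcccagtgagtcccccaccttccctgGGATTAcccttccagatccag

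Samd7, chr3:30746043-30746292: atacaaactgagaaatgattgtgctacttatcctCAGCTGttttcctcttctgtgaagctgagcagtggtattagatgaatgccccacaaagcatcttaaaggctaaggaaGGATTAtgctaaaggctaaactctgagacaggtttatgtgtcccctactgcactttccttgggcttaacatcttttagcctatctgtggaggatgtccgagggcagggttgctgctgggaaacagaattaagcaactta

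Rorb, chr19:19111197-19111446: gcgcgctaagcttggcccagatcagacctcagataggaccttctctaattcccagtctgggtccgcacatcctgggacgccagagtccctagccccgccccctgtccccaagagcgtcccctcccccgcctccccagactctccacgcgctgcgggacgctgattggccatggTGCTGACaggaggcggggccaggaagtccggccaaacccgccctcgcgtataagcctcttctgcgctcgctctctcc

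*Crx* carried a pair of CRX matches, at 94 to 89 and 21 to 16 bases before its start, and *Samd7* a single CRX match at 139 to 134 bases. In *Samd7* the first capitals, CAGCTG, are an E-box. In *Rorb* the NRL match lay 77 to 71 bases before the start. The CRX match of *Thrb* was 46 to 41 bases before the first RefSeq start. The window before the RefSeq start of *Nrl* lies wholly within bases that GENCODE annotates as exon and UTR, and 64 of the 250 bases before the first start of *Thrb* are annotated as UTR. In *Nrl* the window held an E-box pair and a single match to the PRDM1 motif AGTGAAAG, 104 to 97 bases before the start and printed CTTTCACT on the strand of the gene, a motif present in 1.09% of all promoters. E-boxes (CAGNTG) stood before 7 of the 15 starts and in 44.8% of all promoters, and the nuclear receptor motif AGGTCA before 4 of the 15 and in 14.0% of all, where the match in *Rxrg* overlaps an E-box by 2 bases. The related AAGTCA motif of NR2E3 and the MEF2 motif were found before 0 of the 15, against 13.1% and 0.508% of all promoters. A match is a description of letters and not evidence of binding, and regulators with and without CRX matches occurred among those that fell and those that did not.

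**Figure D2:**
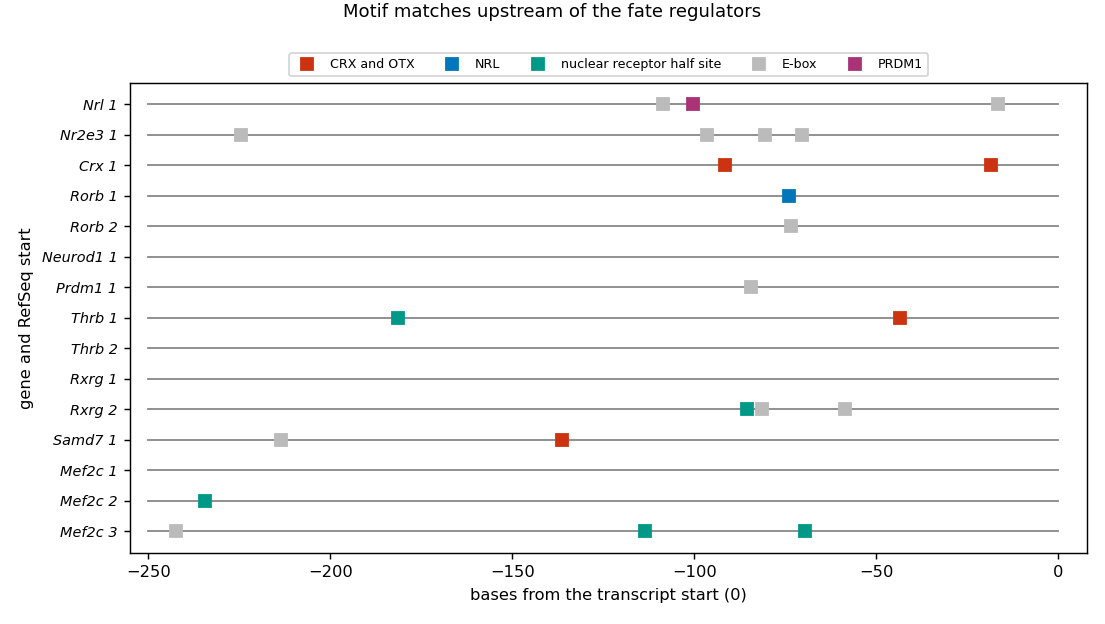
Motif matches in the 250 bases before each of 15 RefSeq transcript starts of the 10 regulators, against the distance from the start in bases, with 1 line per start and a colour per motif. CRX matches (red) stand before *Crx*, *Samd7* and the first start of *Thrb*, and the NRL match (blue) before the first start of *Rorb*.

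The size of the change was also compared between regulators. Ratios between regulators within a library, which do not depend on how libraries are scaled, were compared for 6 pairs with a two-sided exact permutation test, whose smallest p with 4 libraries against 4 is 0.0286. *Nrl* over *Crx* had log2 ratios of 2.41, 2.61, 2.39 and 2.47 in *Bbs8*+/+ libraries and 1.62, 1.68, 2.00 and 1.96 in *Bbs8*-/- libraries, a difference of −0.65 on the log2 scale (95% interval −0.99 to −0.38, exact p = 0.0286, 0.0571 after adjustment over the 6 pairs). *Nrl* over *Nr2e3* went from 1.50 ± 0.0513 to 0.856 ± 0.142 (SD, n = 4), a difference of −0.65 (95% interval −0.79 to −0.36, exact p = 0.0286, adjusted 0.0571). In both pairs every mutant ratio was below every control ratio, but the adjusted p cannot pass 0.05 with 6 pairs when 3 of them reach the smallest p. *Neurod1* over *Crx* was higher in all mutant than in all control libraries, with 0.44 ± 0.202 against −0.26 ± 0.141 (difference 0.70, 95% interval 0.44 to 1.19, exact p = 0.0286, adjusted 0.0571). No difference was detectable for *Nr2e3* over *Crx*, with a difference of −0.0059 and an interval of −0.22 to 0.32 (exact p = 0.943), or for *Rorb* over *Crx*, with 0.07 and an interval of −0.21 to 0.49 (exact p = 0.543). *Thrb* over *Rxrg* differed by −1.02 with an interval of −2.76 to 0.97 (exact p = 0.114, adjusted 0.171), a wide interval that rests on few *Rxrg* counts.

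**Figure D3:**
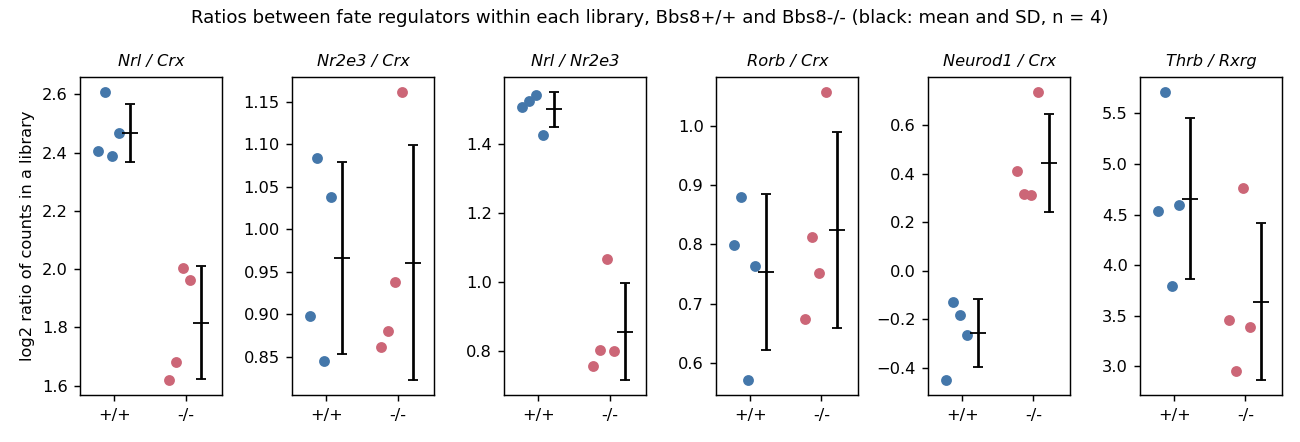
Log2 ratio of the counts of 2 regulators in each library, for 6 pairs, with *Bbs8*+/+ in blue, *Bbs8*-/- in red and the mean and SD (n = 4) in black; each panel has its own axis. The genotypes are separated for *Nrl*/Crx, *Nrl*/Nr2e3 and *Neurod1*/Crx and overlap for the other 3 pairs.

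The genes these regulators control were set beside them. Of 13 rod genes 12 were down-regulated and 0 up-regulated, with a median log2 fold change of −1.33. *Reep6*, needed for transport in rods, fell by 1.83 on the log2 scale (1947 ± 142 to 548 ± 30.2 CPM, SD, n = 4, adjusted p = 5.33e-22) and *Gnat1*, the rod transducin alpha subunit, by 1.47 (8608 ± 387 to 3104 ± 167 CPM, adjusted p = 1.45e-23). Only *Gngt1*, the rod transducin gamma subunit, was not called in this list (860 ± 305 and 778 ± 121 CPM, adjusted p = 0.609). This rested on *Bbs8*+/+ replicate 1, which had 433 CPM against 919 to 1155 in the other controls, and without it *Gngt1* was down-regulated too (log2 fold change −0.37, adjusted p = 1.92e-04). Of 20 genes used by rods and cones 18 were down-regulated, 0 up-regulated and 2 not called, with a median of −0.98. Among them *Fscn2* (−1.46), *Rdh12* (−1.34) and *Prph2* (−1.25) changed most, and *Pdc*, which had the highest level in CPM, fell from 4412 ± 238 to 2131 ± 74.4 CPM (SD, n = 4).

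Cone genes differed from this in direction. Of 10 cone genes 6 were up-regulated, 0 down-regulated and 4 not called, with a median of 0.80. The number fell to 4 without *Bbs8*+/+ replicate 2, *Bbs8*+/+ replicate 4 or *Bbs8*-/- replicate 2, and to 5 without *Bbs8*+/+ replicate 3 or *Bbs8*-/- replicate 1, 3 or 4. *Gnb3*, the cone transducin beta subunit, was at 41.3, 28.3, 41.7 and 32.7 CPM in *Bbs8*+/+ and at 205, 229, 238 and 230 CPM in *Bbs8*-/- libraries, a log2 fold change of 2.65 (adjusted p = 2.05e-18). This gene is also used by ON bipolar cells, whose markers are given below with the bipolar list. *Pde6h*, the inhibitory subunit of the cone phosphodiesterase, rose by 1.21 (17.2 ± 7.05 to 39.3 ± 9.39 CPM, adjusted p = 0.00115), and *Gngt2*, the cone transducin gamma subunit, by 1.14 (adjusted p = 4.37e-04). Both cone opsins rose, *Opn1sw* by 0.76 (75.8 ± 11.5 to 128 ± 6.85 CPM, adjusted p = 3.67e-05) and *Opn1mw* by 0.84 (14.0 ± 1.52 to 25.1 ± 3.61 CPM, adjusted p = 0.0261), although *Opn1mw* kept its call in only 3 of 8 fits with a library left out (log2 fold changes of 0.76 to 0.93, adjusted p up to 0.0863). Their receptors *Thrb* and *Rxrg*, described above, were not called, and *Arr3*, cone arrestin, was at 24.0 ± 3.64 and 21.9 ± 2.79 CPM (adjusted p = 0.808).

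**Figure D4:**
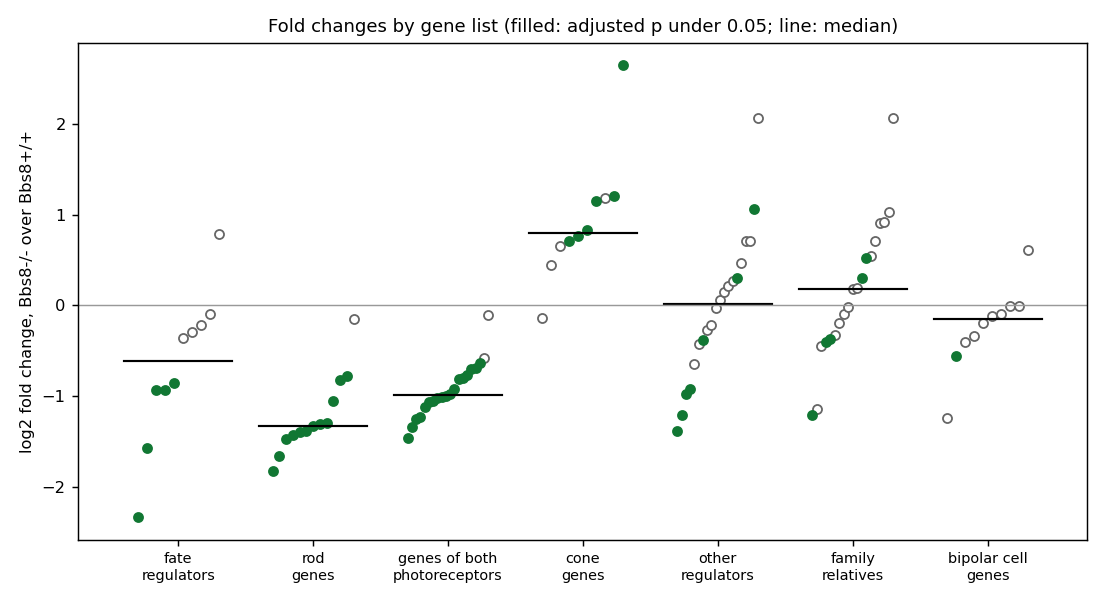
Log2 fold change, *Bbs8*-/- over *Bbs8*+/+, of each tested gene of 7 lists, filled where the adjusted p is under 0.05, with the median of each list as a line. The regulators spread between −2.33 and 0.78, rod genes and genes of both photoreceptors all lie below 0, and all cone genes but *Arr3* lie above it.

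Against this background, each regulator was also compared with the rod and cone RNA of its own library. With the summed counts of the 13 rod genes in place of TMM, the fit asks whether a regulator fell more or less than this sum. Abundant rod genes weigh most in it. With TMM the called rod genes themselves ranged from −0.77 (*Sag*) to −1.83 (*Reep6*) in log2. That range also holds *Nrl*, *Nr2e3*, *Crx* and *Rorb*. Relative to the rod sum, the median log2 fold change of all tested genes stood at 1.32 in place of 0.0217. On this scale 0.279% of all tested genes (36 genes) were lower and 80.0% higher in *Bbs8*-/- libraries. *Nrl* and *Mef2c* were among the 36 that were lower. *Nrl* had 37.1, 38.8, 38.2 and 36.9 counts per 1000 rod counts in *Bbs8*+/+ and 29.7, 29.3, 35.6 and 30.3 in *Bbs8*-/- libraries, or −0.27 in log2 (standard error 0.0701, adjusted p = 7.62e-04). The mutant libraries thus all lay below the controls, with replicate 3 closest to them. *Mef2c* went from 5.10 ± 0.529 to 2.51 ± 0.684 per 1000 rod counts (log2 fold change −1.03, adjusted p = 1.25e-07). Of the 36 genes, 14 were crystallin genes of the lens and 3 belonged to the rod list itself. *Nr2e3*, *Crx* and *Rorb*, which had fallen with TMM, were higher relative to rod RNA, from 13.3 ± 0.325 to 17.2 ± 0.352, from 6.83 ± 0.402 to 8.86 ± 0.799 and from 11.5 ± 0.575 to 15.7 ± 0.563 per 1000 rod counts, with log2 fold changes of 0.37 (adjusted p = 7.65e-05), 0.38 (adjusted p = 7.08e-04) and 0.44 (adjusted p = 1.06e-05). The 5 remaining regulators were higher as well, by 0.93 (*Samd7*) to 2.07 (*Rxrg*), as were 80.0% of all genes.

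Relative to cone RNA 9 of the 10 regulators were lower, on a scale where 74.4% of all tested genes were lower and 0.372% higher. The summed cone genes were 0.0201% to 0.0260% of the counts in *Bbs8*+/+ and 0.0513% to 0.0597% in *Bbs8*-/- libraries, and *Gnb3* alone was 13.8% to 19.3% and 40.3% to 43.2% of that sum. *Thrb*, the cone receptor with enough counts to be measured, was lower by 1.57 on the log2 scale relative to cone RNA (−1.57, standard error 0.179, adjusted p = 8.30e-16), and less so once *Gnb3* was left out (−1.05, adjusted p = 1.12e-07). The median log2 fold change of all tested genes was −1.25 on this scale and −0.73 without *Gnb3*. Most of each *Thrb* value is thus the shift of the scale. *Rxrg* was not called with *Gnb3* (−0.45, 95% interval −1.64 to 0.74, adjusted p = 0.496) or without it (0.05, adjusted p = 0.952).

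**Figure D5:**
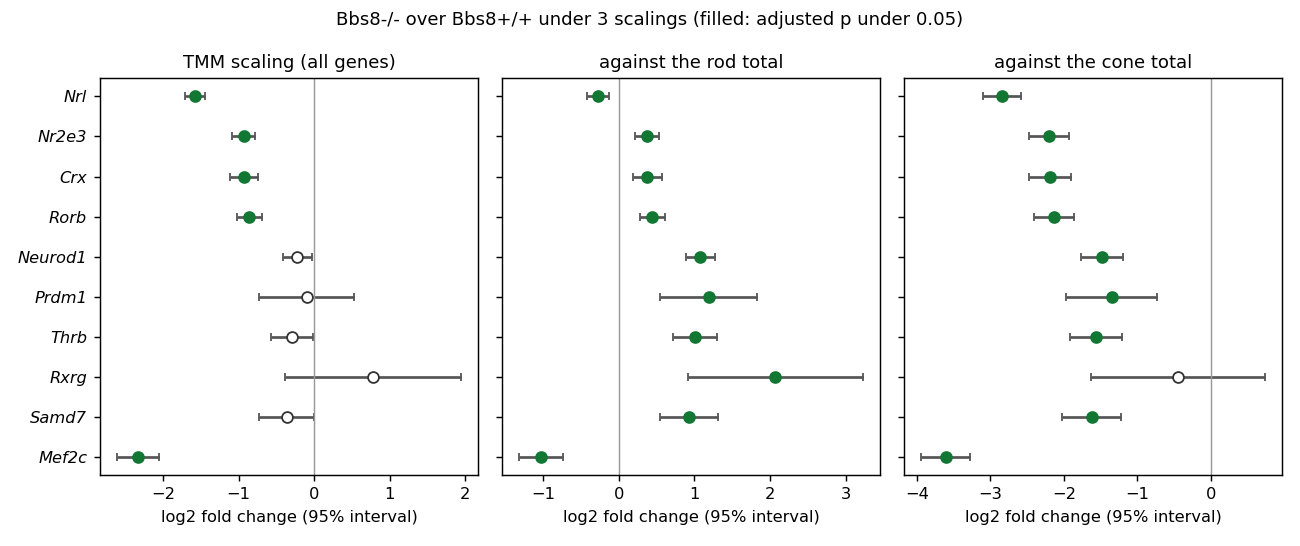
Log2 fold change with its 95% interval for each regulator, *Bbs8*-/- over *Bbs8*+/+, under TMM scaling (left), relative to the summed rod genes (middle) and relative to the summed cone genes (right), filled where the adjusted p is under 0.05. *Nr2e3*, *Crx* and *Rorb* stand left of 0 under TMM and right of 0 relative to rod RNA, while *Nrl* and *Mef2c* stay left of 0 in all panels.

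Other regulators of retinal fate were mixed. Of 24 listed genes 20 were tested, 5 were down-regulated, 2 up-regulated and 13 not called, with a median of 0.01. The shares over all tested genes were 6.80% down-regulated and 5.46% up-regulated. *Esrrb*, an orphan nuclear receptor needed for rod survival, was at 270, 258, 290 and 304 CPM in *Bbs8*+/+ and 103, 104, 110 and 113 CPM in *Bbs8*-/- libraries, a log2 fold change of −1.39 (adjusted p = 2.04e-13) with no overlap. *Samd11*, a partner of *Samd7* in silencing non-rod genes, fell from 275 ± 33.4 to 120 ± 24.3 CPM (SD, n = 4; log2 fold change −1.20, adjusted p = 6.80e-10), whereas *Samd7* itself was not called; the difference between these genes was not tested. The remaining down-regulated genes were *Pias3* (−0.98), which modifies the activity of *Nr2e3* and *Crx* in rods, *Rax* (−0.92) and *Casz1* (−0.38, not called without *Bbs8*+/+ replicate 2 or 3 or *Bbs8*-/- replicate 4), which were named after their values were seen. *Otx2*, which lies upstream of *Crx* in photoreceptors and is also a regulator of the RPE, rose from 910 ± 54.6 to 1125 ± 71.8 CPM (log2 fold change 0.30, adjusted p = 0.00201), with all 4 mutant libraries above the controls. *Pax6*, used by progenitors, amacrine cells and ganglion cells, rose from 10.2 ± 0.740 to 21.4 ± 2.34 CPM (log2 fold change 1.07, adjusted p = 0.00844).

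The close relatives of the regulators, many of them used in other tissues, changed in both directions where they were called. Of 21 relatives 19 were tested, 3 were down-regulated, 2 up-regulated and 14 not called, with a median of 0.18. Over all tested genes 6.80% were down-regulated and 5.46% up-regulated, smaller shares than among the relatives. *Maf*, a relative of *Nrl* that drives crystallin genes in the lens, rose from 151 ± 20.6 to 217 ± 11.9 CPM (log2 fold change 0.52, adjusted p = 4.96e-04), although the lens genes fell. *Rora*, a relative of *Rorb*, fell by 0.40 on the log2 scale (487 ± 24.9 to 368 ± 37.3 CPM, adjusted p = 7.84e-04), and *Mef2d*, the Mef2 factor known for its work with *Crx*, fell from 184 ± 6.95 to 143 ± 12.9 CPM (log2 fold change −0.37, adjusted p = 0.0155, up to 0.0674 without *Bbs8*-/- replicate 3 or 4), while *Mef2a* was at 85.8 ± 8.13 and 84.6 ± 9.64 CPM (adjusted p = 0.959). Genes of bipolar cells, the fate that *Prdm1* represses, gave 1 down-regulated gene and 9 not called out of 10 tested. *Prkca* fell from 111 ± 6.80 to 75.6 ± 10.9 CPM (log2 fold change −0.56, adjusted p = 0.00282) and *Trpm1*, a channel of ON bipolar cells that melanin-bearing cells also express, was at 149 ± 13.3 and 130 ± 13.7 CPM (adjusted p = 0.329). The ON bipolar glutamate receptor gene *Grm6* was near the floor, at 1.83 ± 1.98 and 1.82 ± 0.747 CPM. The whole list summed to 293 to 328 CPM in *Bbs8*+/+ and 222 to 291 CPM in *Bbs8*-/- libraries.

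Which genes followed each regulator across the 8 libraries was described by the root mean square (RMS) difference of log2 CPM profiles, each centred on its own control mean, over 8427 genes whose mean reached 10 CPM. *Nrl* was closest to *Pkm* (RMS 0.0924), the pyruvate kinase of glycolysis, and *Grtp1* (0.106). *Nr2e3* was closest to *Rax* (0.0472), *Ldha* (0.0509), which encodes a lactate dehydrogenase subunit, and *Rp1l1* (0.0546), and *Crx* to *Cacna2d4* (0.0685), *Ldha* (0.0804) and *Rcvrn* (0.0814). The nearest profiles to *Rorb* were those of *Map1b* (0.0730), *Dmd* (0.0731) and *Mapre3* (0.0735). Genes of both photoreceptors, *Rp1l1* and *Rcvrn*, thus stood among the nearest profiles of *Nr2e3* and *Crx*. *Mef2c* had no gene within an RMS of 0.2, and the closest were the lens crystallin genes *Crybb2* (0.263), *Crybb3* (0.312) and *Cryba4* (0.424). Within 0.2 there were 3 genes for *Prdm1*, 13 for *Nrl*, 74 for *Samd7*, 90 for *Crx* and 123 for *Nr2e3*. *Rorb* had 147, *Thrb* 575 and *Neurod1* 818, so the genes named are a few of many with like profiles for most regulators. The nearest to *Neurod1* were *Ndufb11*, *Kmt2e* and *Snap25*, to *Thrb* *Kansl1l*, *Eif4a3* and *Fopnl*, to *Samd7* *Egln1*, *Taf6* and *Gpr108* and to *Prdm1* *Mrpl32*, *Srsf4* and *Cd3eap* (log2 fold changes of −0.39 to −0.10). Such closeness mostly reflects a like difference between the genotypes, and is given as a description.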

How the data were processed

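RNA of isolated RPE (4 *Bbs8*+/+ and 4 *Bbs8*-/- animals, P29) was converted by the authors into QuantSeq 3′ libraries from 30 ng of RNA and read as single ends of 100 bp. The authors trimmed the reads with BBDuk, aligned them with STAR to mm10, used htseq-count to assign uniquely mapped reads to genes, and deposited the raw counts of each library. The strand setting of the counting is not given in the sources used here, so antisense neighbours cannot be told apart. Symbols and coordinates came from the GENCODE M21 annotation of GRCm38, and 30934 of 31053 identifiers were named. Reads outside genes made up 17.0% to 18.4% (*Bbs8*+/+) and 19.8% to 20.6% (*Bbs8*-/-) of the reads in a file, ambiguous reads at most 0.296%, and reads with several alignments 32.8% to 34.5%.

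Counts were tested in R 4.3.3 with edgeR 4.0.16 (TMM, quasi-likelihood F test, 2-sided, at least 1 CPM in at least 4 libraries, Benjamini-Hochberg over 12889 genes, threshold 0.05), with genotype as the only term, as the study names edgeR and no covariate. Its filter on multi-mapping reads needs the alignments and was not repeated. Standard errors came from the estimate and the F statistic. Regulators were compared with rod and cone RNA by using the summed counts of each list as library size, and with each other by log2 ratios with 0.5 added to each count, an exact permutation test and its inverted interval. Alternatives were DESeq2 1.42.0, library size alone, TMM with the lens, erythrocyte and photoreceptor lists left out, other filters, a replicate block and each library left out. On data simulated from these libraries (12611 genes), 58.5% of the genes changed by 1 on the log2 scale and 76.1% of those changed by 2 were called, with 3 false calls. No libraries were duplicates (chi-square per degree of freedom of at least 2.87 between replicates). Promoter sequences came from the RefSeq table, read only upstream of each start.

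The 10 regulators and all gene lists were chosen with earlier results of these data known. Genes named from a list are the 3 called genes with the largest fold change among those whose mean reached 10 CPM and the gene with the highest mean CPM, for each regulator the 3 tested genes with the nearest profile, and *Ttc8*; further genes were named after their values were seen, and results for some genes the rule covers are not reported here. Lists of Müller glia, inner retinal neurons, fibroblasts and surface epithelium were also examined, with 3 of 9, 1 of 8, 0 of 8 and 5 of 6 tested genes up-regulated and 0, 0, 2 and 0 down-regulated.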

Additional observations from a re-analysis of the deposited data

How the results depend on the processing

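The calls of the 10 regulators depended little on the processing. With each of the 8 libraries left out in turn and under 6 other settings, 139 of 140 values kept their side of the threshold, and 1 (*Neurod1* without *Bbs8*+/+ replicate 1) passed it. None of the called values changed sign, and the number called was 5 under DESeq2, library size, TMM without other tissues, both filters and the replicate block, and 5 to 6 with each library left out. The log2 fold change of *Prdm1*, never called, ranged from −0.26 to 0.14 as libraries were left out. Scaling by library size alone moved the median of all genes by 0.0885 and took *Nrl* to −1.49. All 100 values relative to rod RNA and all 100 relative to cone RNA kept their side of the threshold. On these scales 80.0% of all tested genes were higher and 74.4% lower. For regulators called in that same direction, a kept call therefore says little about stability. *Nrl* and *Mef2c*, lower relative to rod RNA, were called against that shift.

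With a library left out the exact test cannot go below 0.0571, so the ratios *Nrl* over *Crx* (−0.71 to −0.58), *Nrl* over *Nr2e3* (−0.72 to −0.61) and *Neurod1* over *Crx* (0.60 to 0.75) then missed the threshold by construction while their direction held. Replicate numbers did not pair the libraries: same-numbered libraries deviated with correlations of −0.0321 to 0.0067, and 1 of 8 libraries correlated best with its own number. The replicate block left 5 regulators called. *Rxrg* had 4 to 31 counts per library, and its interval is wide. Among the genes named from the photoreceptor, regulator, relative and bipolar lists, the calls of *Gngt1*, *Opn1mw*, *Casz1* and *Mef2d* depended on single libraries, as given beside them, and the other calls held with each library left out.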

Other observations

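Markers of surface epithelium, which lie outside the comparisons above, were measured as well. *Krt15* had 0, 0, 0 and 1 counts in the *Bbs8*+/+ libraries and 44, 55, 62 and 78 counts in the *Bbs8*-/- libraries, and the 8 listed genes summed to 77.7 to 135 CPM and 186 to 231 CPM. Of 6 tested genes 5 were up-regulated. *Perp* and *Dsp* held much of the sum, with means of 48.7 and 50.9 CPM in controls and 61.0 and 76.2 CPM in mutants. *Krt12* had 0 counts in every library. *Trp63* had 1, 3, 0 and 0 counts in *Bbs8*+/+ libraries and 0 in every *Bbs8*-/- library. The genes named here were chosen after their values were seen.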
